A study of Mus musculus with 36 samples.

Results

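The first 30 min of the response to interferon gamma (IFN gamma) were read from 6 arrays of newly transcribed RNA, out of 36 arrays in the series. These 6 were taken by their labels alone: 3 arrays of NIH-3T3 cells given IFN gamma and 3 arrays of cells given mock treatment, all labelled from 0 to 30 min with 500 µM 4-thiouridine (4sU). NIH-3T3 is an established line of mouse embryonic fibroblasts, so that every group models 1 cell line. All cells were at passage 5 to 15 after thawing, grew in DMEM with 5% NCS, were plated 24 h before the experiment and stood at 80% density at its start. IFN gamma was given at 100 U/ml, and so was IFN alpha in the 3 arrays that serve below as a second treatment of the same window. Later windows, from 30 to 60 and from 150 to 180 min with 500 µM 4sU and from 0 to 60 min with 200 µM 4sU, were each measured on 3 arrays per treatment. 4sU is a uridine analog that cells build into RNA while they transcribe, so the purified RNA was made within the window. The labels do not say whether the arrays of a group came from separate cultures, so p-values measure the spread between arrays, which may be technical.

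IFN gamma binds a receptor made of IFNGR1 and IFNGR2, on which the kinases JAK1 and JAK2 sit. The kinases phosphorylate a STAT protein that is already present in the cytoplasm, and its dimer enters the nucleus and binds a short palindrome called the gamma-activated site (GAS). The earliest targets need no new protein. Among them are Irf1, a transcription factor that drives later genes through the interferon-stimulated response element (ISRE), and Socs1, an inhibitor of the JAK kinases that closes the pathway again. Type I interferons such as IFN alpha use another receptor and mostly act through a complex of 2 STAT proteins with IRF9 that binds the ISRE.

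IFN gamma raised the newly made RNA of 72 of 9549 tested genes within these 30 min and lowered that of 4. The risers were headed by immunity-related GTPases (Iigp1, Igtp, Irgm2, Irgm1), the transcription factor Irf1, the peptide transporter gene Tap1, the chemokines Cxcl9 and Cxcl10, and the feedback inhibitors Socs1 and Socs3. Most were modest in size: 53 rose at least 2-fold, 23 at least 4-fold and 8 at least 8-fold, and the median difference of the 72 was 1.44 on the log2 scale. The genes that fell were Hes1, Lif, Gm11772 and Id4. A gene was called at an adjusted p under 0.05, which 0.754% of all tested genes met as higher and 0.0419% as lower. At an unadjusted p under 0.05 the counts were 173 and 49, and the median difference over all tested genes was -0.021.

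The values are log2 intensities after GCRMA, a background correction and normalization for Affymetrix arrays, and a gene stands for its probe set with the highest mean. On all 72 genes every IFN gamma array lay above every mock array, a pattern that 6.03% of all tested genes had, and on the 4 others every IFN gamma array lay below, as on 4.87% of all. The genes were chosen by a test of these same arrays, so this separation adds no support to the calls. For 20 of the 72 genes the mock mean was under a log2 value of 4, which is close to the floor of these arrays, so that their fold is a fold over background. Tested genes needed a value above 4 on at least 3 of the 36 arrays, so these 20 could enter through their interferon arrays. The calls stood on a spread shared by all 36 arrays. With the array number as a block, since arrays of the same number deviated together in this window, all 76 calls were kept and the counts became 107 higher and 18 lower. Left out in turn, single arrays of the 6 gave 46 to 59 higher genes, with 46 without mock array 3 and also without IFN gamma array 1. Lower genes then numbered 1 to 3: 1 when the array left out was number 2 or 3 of mock or number 2 of IFN gamma, 2 when it was number 1 or 3 of IFN gamma, and 3 when it was number 1 of mock. Of the 76 genes, 42, all of them higher, were called in each of these 6 fits and in every other setting in which they were tested.

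**Figure D1:**
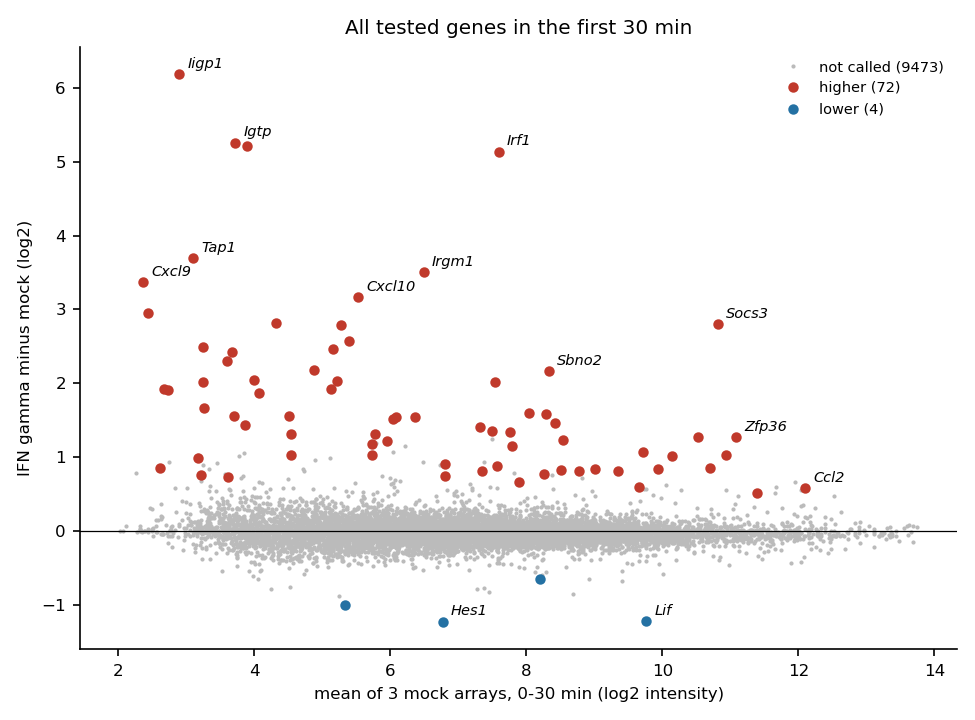
Each point is 1 of the 9549 tested genes, with the mean log2 intensity of the 3 mock arrays on the x axis and the difference between IFN gamma and mock (log2) on the y axis, both for RNA labelled from 0 to 30 min. The 72 genes called higher (red) spread over the whole range of mock levels, and only 4 genes were called lower (blue).

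Within the 0 to 30 min window the arrays were alike. Each correlated with the others of its group at 0.988 to 0.995 over the 9549 tested genes. The median standard deviation within a group was 0.127 for IFN gamma, 0.145 for mock and 0.158 for IFN alpha, against 0.393 for the mock arrays of the 0 to 60 min window. Mock array 1 of that last group enters only the shared spread here, and without it the counts were 83 higher and 8 lower. All 12 fibroblast markers on a list of defining genes (among them Col1a2, Vim and Thy1) were expressed, with a median of 12.04 in mock and 12.06 with IFN gamma, and their summed log2 level was 137.7 and 138.6. Of 12 macrophage markers only Cd14 passed the filter, of 9 adipocyte and muscle markers only Lpl and Fabp4 did, and of the lymphocyte (7), epithelial (7) and endothelial (8) markers none did. None of the marker genes was called by limma, and none had an unadjusted p under 0.05. As in any bulk sample, fewer cells making an RNA and less RNA made per cell cannot be told apart.

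The promoters of the leading genes show which interferon elements stand next to these starts. The stretches below are the 200 bases before the start of transcription, 5′ to 3′ in the direction of the gene, from RefSeq on build GRCm38.p6, and they were picked because the genes rose most and hold the motif, with Tap1 and Irgm1 as leading genes without a GAS. No stretch is shown for Iigp1, the largest riser, so the set does not cover all leading genes. Capitals mark the GAS (TTCNNNGAA) and the ISRE core (GAAANNGAA, searched on both strands).
Igtp, chr11:58199356-58199555, plus strand: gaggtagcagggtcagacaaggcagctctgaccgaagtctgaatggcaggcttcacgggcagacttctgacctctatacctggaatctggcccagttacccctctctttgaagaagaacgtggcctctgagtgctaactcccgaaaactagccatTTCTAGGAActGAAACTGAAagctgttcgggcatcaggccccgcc
Irgm2, chr11:58214777-58214976, plus strand: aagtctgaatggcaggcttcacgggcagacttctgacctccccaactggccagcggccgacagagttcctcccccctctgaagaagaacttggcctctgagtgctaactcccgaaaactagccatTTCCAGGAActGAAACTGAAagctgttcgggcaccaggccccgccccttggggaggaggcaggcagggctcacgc
Irf1, chr11:53769814-53770013, plus strand: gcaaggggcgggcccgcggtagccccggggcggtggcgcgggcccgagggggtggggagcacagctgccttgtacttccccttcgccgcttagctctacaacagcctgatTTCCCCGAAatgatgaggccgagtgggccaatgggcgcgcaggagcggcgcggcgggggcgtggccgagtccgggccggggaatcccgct
Socs3, chr11:117969367-117969566, minus strand: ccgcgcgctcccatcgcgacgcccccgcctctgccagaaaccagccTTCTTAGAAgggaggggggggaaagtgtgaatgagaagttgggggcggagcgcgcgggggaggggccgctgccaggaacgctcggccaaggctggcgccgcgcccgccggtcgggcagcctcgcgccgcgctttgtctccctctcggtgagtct
Serpina3i, chr12:104262922-104263121, plus strand: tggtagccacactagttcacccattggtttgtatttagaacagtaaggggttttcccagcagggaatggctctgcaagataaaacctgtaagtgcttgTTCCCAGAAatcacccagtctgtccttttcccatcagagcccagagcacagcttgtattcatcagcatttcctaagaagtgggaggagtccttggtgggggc
Sbno2, chr10:80101188-80101387, minus strand: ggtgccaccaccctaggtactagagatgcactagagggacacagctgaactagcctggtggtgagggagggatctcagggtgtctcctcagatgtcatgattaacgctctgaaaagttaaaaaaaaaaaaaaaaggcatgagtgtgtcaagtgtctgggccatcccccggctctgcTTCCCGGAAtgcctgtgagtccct
Tap1, chr17:34187356-34187555, plus strand: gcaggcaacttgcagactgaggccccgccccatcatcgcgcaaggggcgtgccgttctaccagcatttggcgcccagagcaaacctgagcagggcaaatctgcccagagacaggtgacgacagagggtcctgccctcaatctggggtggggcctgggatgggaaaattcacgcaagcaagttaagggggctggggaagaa
Irgm1, chr11:48871421-48871620, minus strand: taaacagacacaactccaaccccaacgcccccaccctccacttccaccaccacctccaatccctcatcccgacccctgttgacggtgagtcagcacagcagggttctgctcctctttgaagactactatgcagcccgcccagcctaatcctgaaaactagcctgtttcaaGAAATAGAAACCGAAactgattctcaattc

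The first base of the GAS lay 45 bases before the start in Igtp, 75 in Irgm2, 90 in Irf1, 154 in Socs3, 102 in Serpina3i and 24 in Sbno2. Igtp and Irgm2, which are neighbours on chromosome 11, carry an ISRE core a few bases after the GAS, 34 and 64 bases before their starts. Irgm1 has 2 overlapping ISRE cores, 30 and 24 bases before its start, and Tap1 has neither motif in this stretch. A promoter window of 300 bases (250 before and 50 after the start) was held for 60 of the 72 risers. The GAS letters occurred in the windows of 20 of these genes (33.3%) and the ISRE core in 15 (25%), with both in 7 and neither in 32. Among the 7826 tested genes with such a window, 7.91% held the GAS letters and 8.25% the ISRE core, and over all 27025 genes with promoters in RefSeq's set used here the shares were 9.55% and 9.76%. The 19 genes that rose at least 4-fold had the GAS in 31.6% and the ISRE core in 42.1%, and the 41 smaller risers in 34.1% and 17.1%. None of the 3 genes that fell and had a window held either. A match of these letters is a description of the window and not a measured site.

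Among the transcription factors, Irf1 and Irf9 rose. Irf1, the activator described above, read 7.87, 7.34 and 7.57 on the mock arrays and 12.87, 12.62 and 12.70 on the IFN gamma arrays. The lowest treated array was thus far above the highest mock array, and the difference was 35.2-fold (log2 difference 5.14 ± 0.19 SE, n = 3 and 3, adjusted p = 4.43e-19). Irf9, the DNA-binding subunit of the type I interferon complex, went from 5.52, 5.08 and 5.20 to 8.12, 7.98 and 8.04, or 6.88-fold (2.78 ± 0.17, adjusted p = 2.22e-13). These were 2 of 11 tested STAT and IRF genes, and the median difference of that list was 0.05. Beside this and each list count below stands the share over all tested genes, 0.754% called higher and 0.0419% called lower. Stat2, the second subunit of the type I complex, read 3.81, 3.62 and 4.12 in mock and 5.30, 4.21 and 5.22 with IFN gamma. Its arrays did not overlap, but the difference of 1.06 ± 0.42 had an adjusted p of 1.0. A second, dimmer probe set of Stat2, which lay between 3.21 and 3.57 in mock and between 4.56 and 4.93 with IFN gamma, was called in limma's fit of all probe sets (1.35 ± 0.24, adjusted p = 0.0015). Irf7 (0.29 ± 0.28), Stat3 (-0.15 ± 0.24) and Nlrc5 (-0.01 ± 0.13), the activator of MHC class I genes, were not called either. Nlrc5 was at the floor on all 6 arrays, between 2.33 and 2.36.

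The receptor and its kinases did not pass the test. Of 7 genes of the list none was called by limma, 1 had an unadjusted p under 0.05 (higher), and the median difference was -0.11. Ifngr1 read 5.52, 5.30 and 5.38 in mock and 5.19, 5.12 and 5.06 with IFN gamma, which is lower on every array by a difference of -0.27 ± 0.24 (adjusted p = 1.0). Jak2 overlapped between the groups (0.20 ± 0.16). Ifnar2, a chain of the type I interferon receptor, was higher on every IFN gamma array (0.48 ± 0.20, adjusted p = 1.0).

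Feedback inhibitors were among the risers, 4 of 16 on their list. Socs3, which blocks JAK signalling at cytokine receptors, stood at 10.79, 10.92 and 10.73 in mock and at 13.63, 13.61 and 13.60 with IFN gamma. The treated arrays lay within 0.1 of each other, and the rise was 6.95-fold (2.80 ± 0.15, adjusted p = 4.38e-15). Socs1 went from 4.55, 3.90 and 4.53 to 7.17, 7.07 and 7.18 (2.82 ± 0.34, adjusted p = 1.12e-06). Cish, a SOCS family member best known as a STAT5 target, went from 3.82, 3.97 and 4.40 to 6.14, 5.65 and 5.99 (1.86 ± 0.27, adjusted p = 3.88e-05). The kinase gene Pim1 rose by less, 1.58-fold (0.66 ± 0.13, adjusted p = 0.00352), and was called in 4 of the 6 fits without an array. The other listed inhibitors were not called, among them Usp18 (0.31 ± 0.50), Ptpn2 (-0.10 ± 0.17), Pias1 (0.12 ± 0.20) and Socs2 (-0.39 ± 0.24), and the median of the list was 0.17.

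The interferon-inducible GTPases were the list with the largest share of risers among tested genes, 8 of 11, and its median difference was 2.42. Their products coat and disrupt the vacuoles of intracellular pathogens. Iigp1, Igtp, Irgm2, Gbp6, Ifi47, Gbp7 and Gbp3 had mock means under log2 4, the level of the filter. Such genes could enter the test through their interferon arrays, so the share and median of this list depend on the filter. Iigp1 read 2.79, 3.16 and 2.72 in mock, at the floor, and 9.07, 8.97 and 9.18 with IFN gamma, a difference of 6.18 ± 0.36 (adjusted p = 5.66e-14). Igtp moved from 4.02, 3.60 and 3.53 to 9.24, 8.79 and 8.90 (5.26 ± 0.29, adjusted p = 1.34e-14), and Irgm2 from 4.09, 3.74 and 3.83 to 9.40, 8.80 and 9.10 (5.22 ± 0.24, adjusted p = 1.38e-16). All 3 were near the floor without IFN gamma and well expressed with it. Irgm1, a regulatory member of the family, was already expressed in mock at 6.45, 6.44 and 6.58 and rose to 10.12, 9.77 and 10.11, or 11.4-fold. Gbp6 (2.49 ± 0.31), Ifi47 (2.42 ± 0.33), Gbp7 (1.55 ± 0.35) and Gbp3 (1.43 ± 0.34) rose from mock means under log2 4. The calls of Gbp7 and Gbp3 were kept in 2 and 1 of the 6 fits that left out an array. Gbp2, a guanylate-binding protein, was between 6.07 and 6.46 in mock and between 7.22 and 7.56 with IFN gamma, without overlap, yet its difference of 1.15 ± 0.35 missed the threshold (adjusted p = 0.233). With only the arrays of this window the Gbp2 adjusted p was 0.0196. Irgq and Gbp8 were not called (0.18 ± 0.17 and -0.07 ± 0.10). The GTPases of these families are close copies, so cross-hybridisation among them cannot be told apart here from their own signal.

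**Figure D2:**
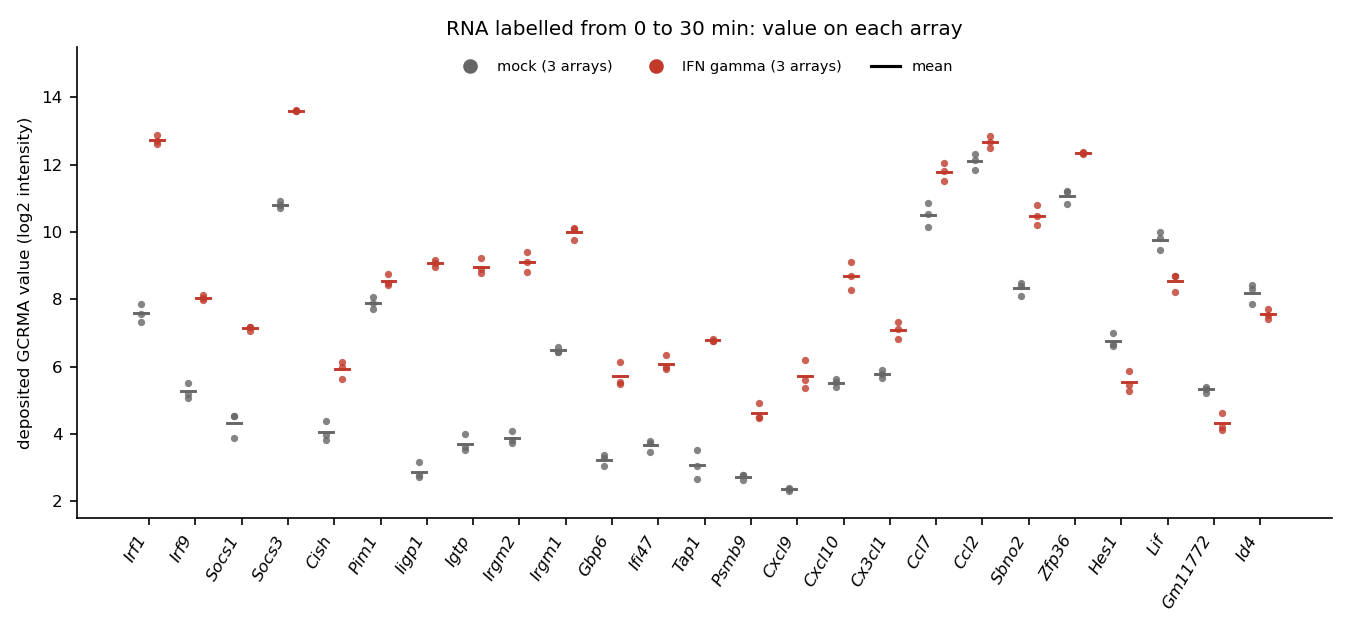
Deposited GCRMA values (log2 intensity, y axis) of 21 genes that rose and the 4 that fell, on each of the 3 mock arrays (grey) and 3 IFN gamma arrays (red) of the 0 to 30 min window, with a bar at each mean. No gene shown has overlapping groups, and Irf1 and Socs3 show the gap beside the small spread between arrays.

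In the antigen presentation list 2 of 15 genes rose, and both serve the making of peptides for MHC class I. Tap1, a subunit of the transporter that carries peptides into the endoplasmic reticulum, went from 3.54, 3.06 and 2.67 to 6.83, 6.76 and 6.78 (3.70 ± 0.28, adjusted p = 4.49e-11). Psmb9, a subunit of the immunoproteasome, went from 2.78, 2.78 and 2.62 to 4.92, 4.50 and 4.48 (1.90 ± 0.21, adjusted p = 2.76e-07). These genes are transcribed away from each other, and their starts on GRCm38.p6 lie 226 bases apart on chromosome 17, so that their 300-base windows share 275 bases. Every treated array was above every mock array in both. The other members stayed near the median of the list, 0.08: B2m 0.38 ± 0.21, H2-K1 0.13 ± 0.23, Tap2 0.11 ± 0.25 and H2-D1 0.08 ± 0.20, each with an adjusted p of 1.0. Of the MHC class II list only H2-Ea passed the filter, with a difference of 0.05, and Cd74 (2.00), H2-Aa (2.59) and H2-Ab1 (2.70) stood at the floor with IFN gamma as in mock.

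Chemokines and cytokines moved both ways, with 5 of 21 higher, 1 lower and a list median of 0.08. Cxcl9, a ligand of CXCR3 that attracts T cells, was at the floor in mock (2.31, 2.37 and 2.39) and read 6.20, 5.38 and 5.61 with IFN gamma, a difference of 3.37 ± 0.48 (adjusted p = 2.76e-05). A second probe set of Cxcl9 was not called. Cxcl10, its neighbour on chromosome 5 and a ligand of the same receptor, went from 5.4, 5.54 and 5.63 to 9.11, 8.27 and 8.70 (3.17 ± 0.47, adjusted p = 5.04e-05). The IFN gamma arrays of both chemokines were spread more widely than the mock arrays, with array 1 highest. The monocyte attractants Ccl7 (1.27 ± 0.30, adjusted p = 0.0334) and Ccl2 (0.58 ± 0.14, adjusted p = 0.0297) and the fractalkine gene Cx3cl1 (1.32 ± 0.32, adjusted p = 0.0397) rose by less. Their calls were kept in 2, 2 and 0 of the 6 fits without an array, and Ccl2 had an adjusted p of 0.145 with only the arrays of this window. Il6 was higher on every IFN gamma array but was not called (0.71 ± 0.30), and neither was Cxcl11 (0.02 ± 0.28), the third CXCR3 ligand.

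Lif, a cytokine of the interleukin 6 family, fell from 9.47, 9.82 and 10 to 8.22, 8.70 and 8.70 (-1.22 ± 0.29, adjusted p = 0.0291). Hes1, a repressor that Notch signalling induces, fell from 7.0, 6.63 and 6.68 to 5.86, 5.28 and 5.47 (-1.23 ± 0.24, adjusted p = 0.0038). Id4, an inhibitor of helix-loop-helix factors, fell from 7.87, 8.44 and 8.30 to 7.41, 7.54 and 7.71 (-0.65 ± 0.16, adjusted p = 0.0346). The lowest mock array of each gene was above its highest IFN gamma array. Gm11772, a predicted gene, fell by 1.01 ± 0.24 on the log2 scale (adjusted p = 0.0297). Hes1 was called in 5 of the 6 fits without an array, Id4 in 2, and Lif and Gm11772 in 1 each. Of the 2 other probe sets of Id4 that passed the filter, none was called lower. Hes1 and Id4 were the only calls among 12 tested early targets of Notch, BMP and TGF-beta, whose median was -0.15. Id1 (-0.27 ± 0.20), Id3 (-0.24 ± 0.25) and Smad7 (-0.20 ± 0.35) were not called. Of 13 signalling brakes of other pathways, such as the Sprouty genes and Per1, none was called by limma and none had an unadjusted p under 0.05. On 4 of the 13, however, every IFN gamma array was below mock, against 4.87% of all tested genes, and the median was -0.15. Per1 (-0.56 ± 0.32) and Spry4 (-0.53 ± 0.27) lay lowest.

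Genes that the interleukin 6 and STAT3 pathway induces early held 4 risers among 24, with a median of 0.15. Beside Socs3 and Pim1 they were Pim3, a kinase gene (1.07 ± 0.15, adjusted p = 3.07e-05), and Cebpd, a transcription factor of the acute-phase response (1.03 ± 0.25, adjusted p = 0.0359). The Cebpd call was kept in 0 of the 6 fits without an array. Bcl3 (0.93 ± 0.41) and Junb (0.29 ± 0.33) were higher on every IFN gamma array than in mock, and neither passed the test. Of 36 immediate-early genes, which serum and growth factors switch on within minutes, only Zfp36 rose. Zfp36 encodes a protein that marks AU-rich mRNAs for decay, and it went from 10.85, 11.20 and 11.21 to 12.34, 12.33 and 12.39 (1.27 ± 0.24, adjusted p = 0.00238). The median of that list was 0.02. Fos (0.47 ± 0.23), Egr1 (0.04 ± 0.10) and Myc (-0.38 ± 0.20) were not called, with Fos higher and Myc lower on every IFN gamma array.

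Of 46 tested type I antiviral genes, which block steps of virus growth, 3 rose in this window, against 0.754% of all tested genes. At an unadjusted p under 0.05 in limma, 7 were higher and 0 lower, against 173 and 49 of all 9549. The 3 risers were Ifitm3 (0.85 ± 0.21) and Ifitm2 (0.82 ± 0.20), membrane proteins that hinder virus entry, and Samhd1 (0.74 ± 0.19), a phosphohydrolase that depletes nucleotides. Their adjusted p-values lay between 0.0397 and 0.0492, and the calls of Ifitm3 and Samhd1 were kept in 0 of the 6 fits without an array and that of Ifitm2 in 1. On 19 of the 46 every IFN gamma array was above every mock array, against 6.03% of all tested genes, and the median of the list was 0.16. Some of these separations were small and at the floor, as for Mx2 (mean 2.547 in mock, 2.691 with IFN gamma) and Oas1b (2.622 and 2.79). These genes passed the filter through other arrays. Ifit1 read 7.40, 7.24 and 7.26 in mock and 7.78, 7.81 and 7.74 with IFN gamma (0.48 ± 0.50, adjusted p = 1.0), and Mx1 lay between 2.77 and 2.85 on all 6 arrays. Among 11 TRIM genes, 2 rose: Trim21, an antibody receptor and ubiquitin ligase in the cytosol, from 3.90, 4.05 and 4.05 to 6.12, 5.99 and 6.01 (2.04 ± 0.26, adjusted p = 2.86e-06), and Trim25, the ubiquitin ligase of the RIG-I pathway (0.59 ± 0.14, adjusted p = 0.0302), a call kept in 1 of those 6 fits.

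Targets of NF-kB gave 2 risers among 19, Tnfaip2 (1.58 ± 0.16, adjusted p = 3.15e-08) and the mitochondrial superoxide dismutase gene Sod2 (0.84 ± 0.20, adjusted p = 0.0334, called in 1 of the 6 fits without an array), with a list median of 0. Nfkbia, the inhibitor that NF-kB itself induces, was not called (-0.22 ± 0.09), and neither was Icam1 (0.00 ± 0.16). Of 15 genes for T-cell inhibition and cell death none was called by limma, 2 had an unadjusted p under 0.05 (both higher), and Cd274, which encodes PD-L1, differed by 0.58 ± 0.39. The control genes (9 tested, such as Actb at 0.07 ± 0.12, median -0.07) and the fibroblast matrix genes (20 tested, median 0.02) had no call and no unadjusted p under 0.05.

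**Figure D3:**
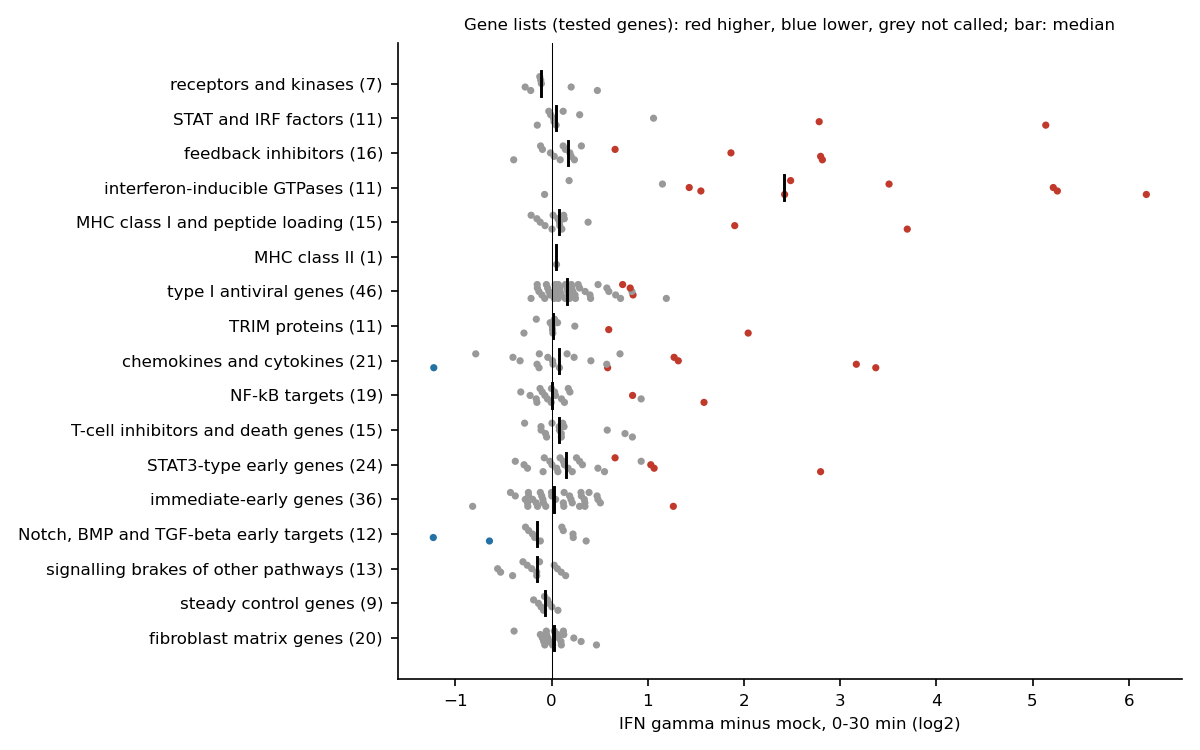
Difference between IFN gamma and mock (log2, x axis) for every tested gene of 17 gene lists (y axis, number tested in brackets), with called genes in red (higher) or blue (lower), others in grey and the list median as a black bar. The GTPases have a median of 2.42, while the medians of the other lists lie between -0.15 and 0.17.

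The other 41 risers were in none of the lists. The largest was 9330175E14Rik, a transcript named only by its clone, which was at the floor in mock (2.44, 2.44 and 2.42) and read 5.16, 5.62 and 5.39 with IFN gamma (2.96 ± 0.16, adjusted p = 8.57e-15). Sbno2, a transcriptional corepressor, went from 8.10, 8.49 and 8.40 to 10.21, 10.80 and 10.48 (2.17 ± 0.31, adjusted p = 2.67e-05). Sbno2 was expressed in mock and had no overlap between groups. Serpina3i and Serpina3n, serine protease inhibitors that lie next to each other on chromosome 12, rose by 2.3 ± 0.31 and 1.22 ± 0.27, and the call of Serpina3n was kept in 2 of the 6 fits without an array. Cped1 (2.47 ± 0.23), Ifitm5 (2.18 ± 0.24), Ggct, an enzyme of glutathione turnover (2.03 ± 0.29), and the ring finger gene Rnf122 (2.01 ± 0.23) each rose about 4-fold or more.

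Several of the unlisted risers encode parts of innate signalling. Myd88, the adaptor of Toll-like and interleukin 1 receptors, went from 7.52, 7.12 and 7.31 to 8.78, 8.64 and 8.77 (1.41 ± 0.20, adjusted p = 2.76e-05). Sting1, the sensor of cyclic dinucleotides, went from 5.17, 5.15 and 5.04 to 7.14, 7.18 and 6.81 (1.93 ± 0.42, adjusted p = 0.013), a call kept in 2 of the 6 fits without an array. Tifa, an adaptor of TRAF6, rose by 1.66 ± 0.32 and Rnf31, the catalytic subunit of the linear ubiquitin ligase, by 1.02 ± 0.25. The Tifa call was kept in all 6 of these fits and the Rnf31 call in 0. These 4 were named together after their values were seen. Risers outside immunity were, for example, Fst, which encodes the activin antagonist follistatin (1.60 ± 0.18), the splicing factor gene Prpf31 (1.34 ± 0.15), Dact1, a modulator of Wnt signalling (1.23 ± 0.19), Hoxd8 (1.14 ± 0.20) and Txnip, an inhibitor of thioredoxin (1.01 ± 0.22), whose call was kept in 3 of these fits. The smallest rise was that of the claudin gene Cldn12, from 11.34, 11.32 and 11.50 to 11.85, 11.89 and 11.97 (0.51 ± 0.10, adjusted p = 0.00187), and it was called in all 6 fits without an array.

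Along the chromosomes, 21 of the 72 risers stood next to another riser when the 9532 tested genes with a known place were put in order. Risers were 0.754% of all tested genes, and the count of neighbours was not tested. They formed 11 pairs. Igtp and Irgm2, Gbp7 and Gbp3, Cxcl9 and Cxcl10, Ccl2 and Ccl7, Serpina3i and Serpina3n, and the run Ifitm5, Ifitm2 and Ifitm3 are members of 1 gene family each. Cross-hybridisation between members of a family was not tested. Psmb9 and Tap1, Rnf31 and Irf9, Azin2 and Rnf19b, and Hoxd8 and Hoxd3os1 are not copies of each other. Within the last of these pairs the rises were 1.14 for Hoxd8 and 2.02 for Hoxd3os1, and Rnf31 rose by 1.02 beside Irf9 with 2.78.

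IFN alpha was set against IFN gamma over the same 30 min to see which early rises differed between the interferons. Both treatments were compared with the same 3 mock arrays, so their differences are given side by side, and the test is that between the IFN gamma and IFN alpha arrays. Of the 72 risers, 41 were higher with IFN gamma than with IFN alpha, 0 were lower (2 at an unadjusted p under 0.05, in limma) and 31 were not called. With the array number as a block these counts were 53 higher and 1 lower. Over all genes this test called 0.524% higher and 0.189% lower, 50 and 18 genes, and 76 and 41 with the array number as a block. The IFN gamma arrays enter both this test and the choice of the 72. IFN alpha against mock called 16 of them, and its median difference over the 72 was 0.28.

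Irf1 rose with both, by 5.14 with IFN gamma and 2.15 with IFN alpha, and the gap of 2.98 ± 0.19 had an adjusted p of 1.33e-12. Socs3 differed by 2.24 ± 0.15 (adjusted p = 2.26e-12), with 0.56 for IFN alpha, and Cish by 1.95 ± 0.27 (adjusted p = 2.96e-05), with -0.09. Socs1 differed by 1.73 ± 0.34 (adjusted p = 0.00429), with 1.08 for IFN alpha. Cxcl9 had no rise with IFN alpha (0.03) and a gap of 3.34 ± 0.48 (adjusted p = 5.04e-05). 9330175E14Rik (0.09 with IFN alpha), Tnfaip2 (0.14) and Fst (-0.18) were likewise higher with IFN gamma.

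Igtp and Irgm2 rose with IFN alpha too, by 3.69 and 3.68, and stood 1.57 ± 0.29 and 1.54 ± 0.24 higher with IFN gamma. Tap1 rose by 2.50 with IFN alpha and was 1.20 ± 0.28 higher with IFN gamma (adjusted p = 0.0282). For Iigp1 (gap 1.31 ± 0.36, adjusted p = 0.125), Irgm1 (0.86 ± 0.28, adjusted p = 0.369) and Psmb9 (0.83 ± 0.21, adjusted p = 0.0617) the gap missed the threshold. With the array number as a block these gaps were called, with adjusted p-values of 0.000371, 0.0299 and 0.0421. Irf9 read 2.78 with IFN gamma and 2.81 with IFN alpha, a gap of -0.03 ± 0.17. Cxcl10 (-1.28 ± 0.47), Trim21 (-0.49 ± 0.26) and Trim25 (-0.46 ± 0.14) had larger estimates with IFN alpha, and none of these gaps was called. That of Cxcl10 was called with the block (adjusted p = 0.000196). Of the 18 genes lower with IFN gamma than with IFN alpha, Id4 and Gm11772 were those that IFN gamma lowered, and 12 were on the type I antiviral list. Ifit3 rose by 4.45 with IFN alpha and differed by 0.19 with IFN gamma, a gap of -4.26 ± 0.40. The gap was -3.85 ± 0.50 for Ifit1 (4.34 with IFN alpha), -2.64 ± 0.43 for Mx2 (2.78) and -2.05 ± 0.42 for Mx1 (2.10). Irf7, which amplifies type I responses, rose by 2.02 with IFN alpha, and its gap was -1.72 ± 0.28.

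**Figure D4:**
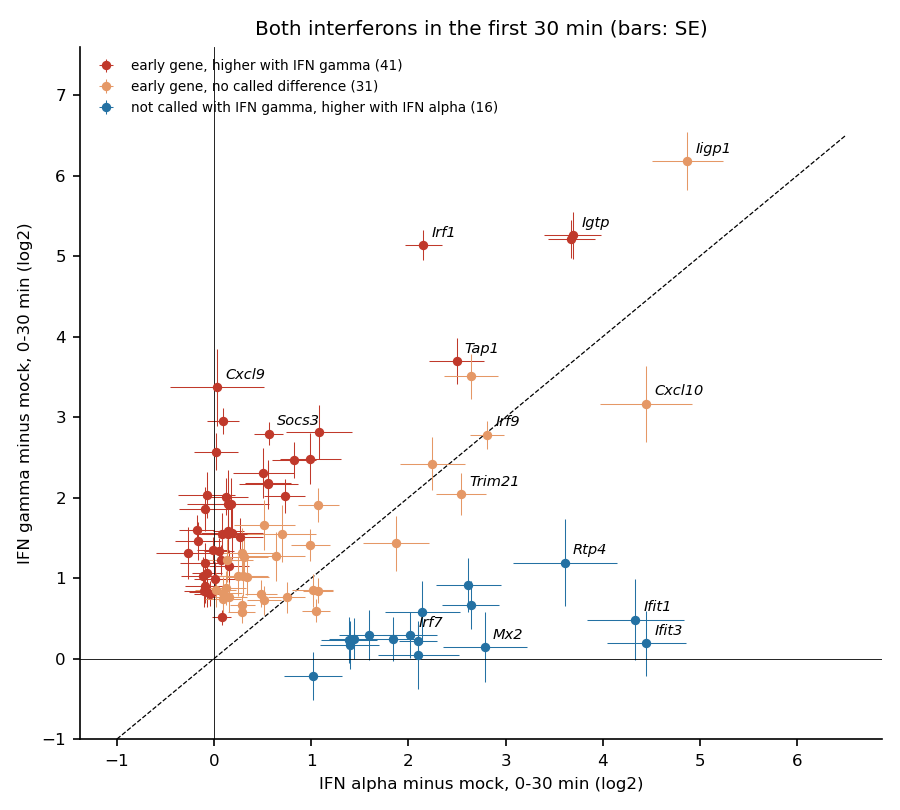
Log2 difference from the shared mock arrays with IFN alpha (x axis) and IFN gamma (y axis) in the 0 to 30 min window, with SE bars and a dashed line of equal response, for the 72 genes that IFN gamma raised and 16 genes not called with IFN gamma that were higher with IFN alpha than with IFN gamma. Of the 72, the 41 in red were higher with IFN gamma, and the 31 in orange had no called gap.

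The later windows show what became of the early response. Of the 72 genes, 68 were also higher at 30 to 60 min (3.82% of all tested genes were), 62 at 150 to 180 min (4.37%) and 65 at 0 to 60 min with 200 µM 4sU (3.83%), and 56 were higher in all 3. Their median difference was 2.48, 1.97 and 2.00 in these windows. Not called at 30 to 60 min were Ccl7, Fbxo31, Narf and Ccl2. Not called at 150 to 180 min were Cped1, Ifitm5, Ppp1r3d, Itpkc, Cebpd, Znhit3, Plekhf1, Ifitm2, Fbxo31 and Narf.

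Each window has its own mock arrays, and mock levels of some genes also shifted between windows, so an effect can differ through either group. Whether the response itself differed was tested as the IFN gamma effect of the later window minus that of the first 30 min. At 30 to 60 min it was larger for 38 of the 72, smaller for 0 (3 at an unadjusted p under 0.05, in limma) and not called for 34, while 1.27% of all tested genes had a larger and 0.23% a smaller effect. At 150 to 180 min it was larger for 25, smaller for 3 and not called for 44, against 1.94% and 0.272% of all. With the array number as a block within each window, these counts were 47 larger and 0 smaller at 30 to 60 min, and 34 and 5 at 150 to 180 min. The effects of the first 30 min that chose the 72 are part of these tests. Over all genes the counts were 121 larger and 22 smaller at 30 to 60 min, and 222 and 123 with the array number as a block. At 150 to 180 min they were 185 and 26, and 287 and 98 with the block. Without mock array 1 of the 0 to 60 min window, smaller effects numbered 59 and 48.

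Of the 11 GTPases, 8 had a called larger response at 30 to 60 min than in the first window, 10 at 150 to 180 min, and none a called smaller one. Iigp1 went from 6.18 to 7.97 and 10.28, and its gain was called at 150 to 180 min but not at 30 to 60 min (1.79 ± 0.52, adjusted p = 0.086, or 0.000397 with the block). Irgq had no called change (0.18, -0.01 and -0.06), and Gbp8 changed only by the last window (-0.07, 0.03 and 2.63). Igtp went from a difference of 5.26 to 7.96 and 9.31, Gbp6 from 2.49 to 4.87 and 9.38, and Ifi47 from 2.42 to 5.08 and 7.96, and each of these gains was called in both later windows. Irgm1 reached 7.32 at 30 to 60 min and 6.25 at 150 to 180 min. Its mock means there were 4.917 and 6.4, and its IFN gamma means 12.233 and 12.651. Tap1 went from 3.70 to 5.63 and 6.05, Psmb9 from 1.90 to 3.30 and 5.58, and Cxcl9 from 3.37 to 7.51 and 7.15. Samhd1 started at 0.74 and reached 4.55 and 3.55 (gain 3.81 ± 0.26, adjusted p = 2.47e-11). Gbp2, uncalled at first, had a gain of 4.29 ± 0.50 (adjusted p = 9.2e-07), and Cd274 went from 0.58 to 4.12.

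Irf1 and the SOCS genes had no called gain in either later window. Irf1 was at 5.14, 5.86 and 5.08 in the 3 windows of 30 min, and the later minus the first response was 0.72 ± 0.27 (adjusted p = 0.341) and -0.06 ± 0.27 (adjusted p = 1.0). Socs3 was at 2.80, 3.45 and 2.56, Cish at 1.86, 2.25 and 2.13, Sbno2 at 2.17, 1.91 and 1.57, and Zfp36 at 1.27, 1.33 and 1.28. Socs1 went from 2.82 to 3.30 and 4.40 without a called gain (1.58 ± 0.48 at 150 to 180 min, adjusted p = 0.0961). With the block the gain of Socs1 by 150 to 180 min (adjusted p = 0.01) and that of Socs3 at 30 to 60 min (adjusted p = 0.0361) were called. Irf9 gained 1.11 ± 0.25 by 150 to 180 min (adjusted p = 0.00573). In all, 27 of the 72 had no called difference in either later window, which does not show that their response stayed the same.

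A smaller late response was called for Cped1 (2.47 at first, 3.09 at 30 to 60 min and 0.69 at 150 to 180 min), Ifitm5 (2.18, 2.88 and 0.49) and Fbxo31 (0.76, -0.03 and -0.36). The loss by 150 to 180 min was -1.78 ± 0.32 for Cped1 (adjusted p = 0.000487), -1.69 ± 0.33 for Ifitm5 (adjusted p = 0.00152) and -1.12 ± 0.27 for Fbxo31 (adjusted p = 0.0135). Fbxo31 had means under log2 4, near the floor, in mock and with IFN gamma in each of these windows. Its call in the first window was kept in 0 of the 6 fits without an array. Ccl2 and Ccl7 had their largest estimates in the last window: Ccl2 differed by 0.58, 0.33 and 2.07, and Ccl7 by 1.27, 0.86 and 2.75. Of these, the gain of Ccl2 at 150 to 180 min was called (1.49 ± 0.19, adjusted p = 2.16e-06), and that of Ccl7 was not (1.48 ± 0.43, adjusted p = 0.0731, and 0.00048 with the block). From the first to the last window the mock mean of Ccl2 fell from 12.101 to 10.822. Its IFN gamma mean went from 12.684 to 12.897. For Ccl7 the mock mean fell from 10.521 to 9.258, and the IFN gamma mean went from 11.794 to 12.012. Among the genes that fell, Hes1 differed from mock by -1.23, -1.90 and -1.79, Id4 by -0.65, -1.23 and -0.99, Lif by -1.22, -2.11 and -0.33, and Gm11772 by -1.01, -0.75 and -0.55. No change between windows was called for these 4. With the block, Lif changed between the first and both later windows (adjusted p = 0.00184 and 0.00127) and Id4 between the first and the next (adjusted p = 0.0236).

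**Figure D5:**
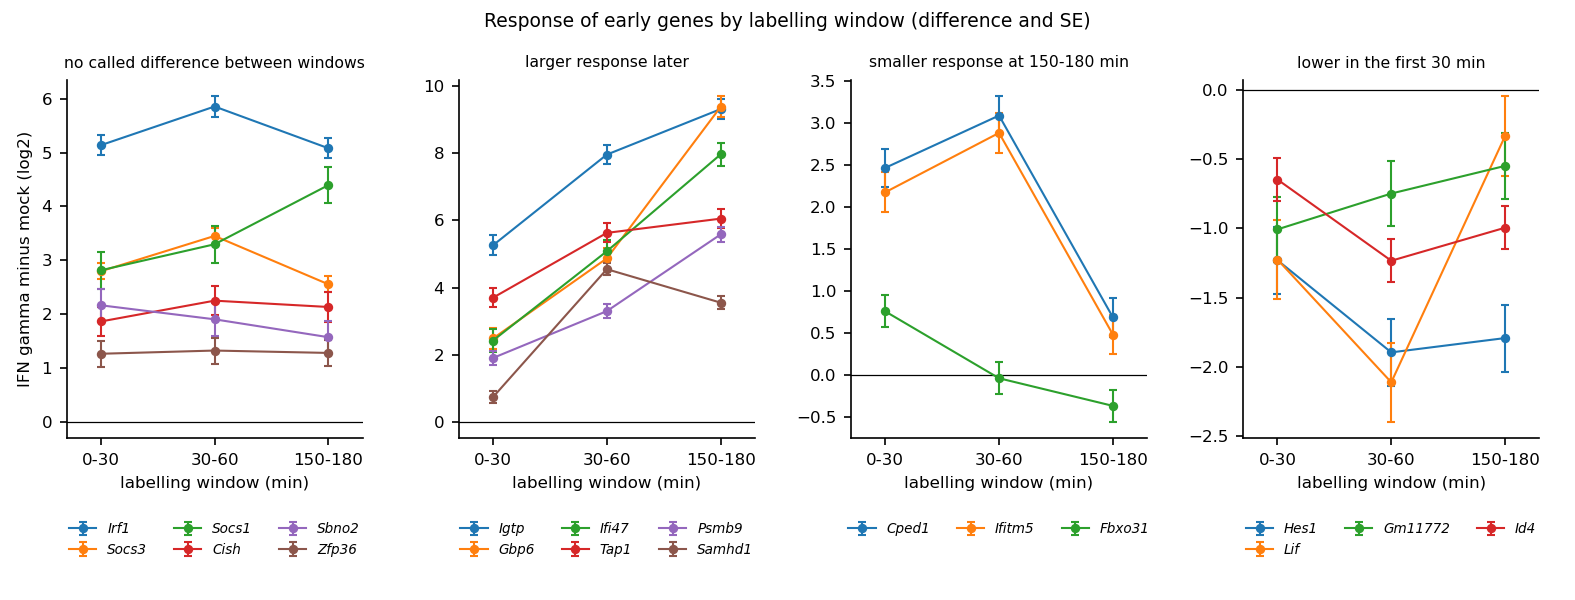
Difference between IFN gamma and mock (log2, y axis, with SE) in the labelling windows 0-30, 30-60 and 150-180 min (x axis) for genes without a called difference between windows, genes with a larger later response, the 3 genes with a smaller response at 150-180 min, and the 4 genes that fell at first. Irf1 stays between 5.08 and 5.86 while Gbp6 goes from 2.49 to 9.38.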

How the data were processed

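The table holds 45101 probe sets on 36 Affymetrix arrays. Its values are log2 intensities that the authors deposited after GCRMA, per the submitters' processing notes; the version is not given in the sources used here. Control probe sets (64) were left out. A probe set was kept with a log2 value above 4 on at least 3 arrays, and each gene is its probe set with the highest mean, named from the platform annotation (34945 probe sets with 1 symbol, 932 with several, 9160 with none), which gave 9549 genes. Only probe sets with 1 symbol were named.

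Group means over all 36 arrays were fitted with limma 3.58.1 (R 4.3.3; lmFit, eBayes with intensity trend; 24 residual and 6.8 prior degrees of freedom) and adjusted by Benjamini-Hochberg at 0.05; the code was tested on simulated data. Errors are the fit's standard errors, and the number of arrays limits the precision. Arrays of the same number tended to deviate together in the first window. All 9 pairs of same-numbered arrays from different groups had an r of 0.205 to 0.651, against 3 of 18 other pairs above 0.1. Mock array 2, however, went with IFN alpha array 3 (r 0.295) more than with IFN alpha array 2 (r 0.208). Deviations were taken from group means of 3 arrays, which ties the r of other pairs to that of same-numbered ones. Pairing was not checked in the other windows, where the block was used as well. Promoters were read from RefSeq.

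Named were the 25 largest rises, the 10 largest falls, called list members and a panel. The values of 1 of these genes are not reported here. The members, lists and panel were chosen with earlier results of these data known.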

Additional observations from a re-analysis of the deposited data

Results flagged for a closer look

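The differences in this part come from a panel of genes, each for a difference between treatments or windows that was itself tested with limma at an adjusted p under 0.05, and all are log2 values with the IFN gamma arrays of the first 30 min on one side.

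Between the interferons in the first 30 min, IFN gamma stood above IFN alpha by 2.98 for Irf1, 1.73 for Socs1, 2.24 for Socs3, 1.95 for Cish, 1.57 for Igtp, 1.54 for Irgm2, 1.2 for Tap1, 3.34 for Cxcl9 and 1.44 for Tnfaip2. It stood below IFN alpha for Id4 (-0.64), Ifit1 (-3.85) and Mx1 (-2.05).

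From the first 30 min to 30 to 60 min, the response to IFN gamma was larger by 2.7 for Igtp, 3.81 for Irgm1, 2.09 for Irgm2, 4.29 for Gbp2, 1.93 for Tap1, 1.39 for Psmb9, 4.14 for Cxcl9, 3.02 for Cxcl10, 1.76 for Trim21, 1.79 for Tnfaip2 and 3.54 for Cd274. Part of such a difference can lie in the mock arrays of each window. For Trim21 the mock mean fell from 3.998 to 2.702, and the IFN gamma mean went from 6.042 to 6.501. For Gbp2 the mock mean fell from 6.217 to 4.698, and the IFN gamma mean rose from 7.369 to 10.139.

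From the first 30 min to 150 to 180 min, it was larger by 1.11 for Irf9, 2.42 for Stat2, 4.05 for Igtp, 2.74 for Irgm1, 3.54 for Irgm2, 4.1 for Iigp1, 7.19 for Gbp2, 2.35 for Tap1, 3.68 for Psmb9, 3.78 for Cxcl9, 3.72 for Cxcl10, 2.47 for Trim21, 1.51 for Tnfaip2, 7.36 for Cd274, 5.3 for Nlrc5, 2.75 for Ifit1 and 3.25 for Usp18.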

How the results depend on the processing

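None of the 76 called genes changed sign under any setting, and 73 of the 76 calls were kept with only the arrays of the window (not Plekhf1, Ccl2 and Id4). The 72 genes higher became 153 with array weights, whose estimation stopped before convergence, and 155 with the array number as a block and only the 0 to 30 min arrays; leaving out single arrays gave 46 to 59. The 4 genes lower became 2 without a filter, 20 with only the 0 to 30 min arrays, 18 with only the 2 groups, 12 without the 0 to 60 min arrays, 8 without mock array 1 of that window, 28 with array weights, 18 with the replicate block, 45 with the block and only the 0 to 30 min arrays, and 1 to 3 with single arrays left out, so their number rests on the setting. With the block, IFN gamma against IFN alpha gave 76 higher and 41 lower genes, the response at 30 to 60 min 222 larger and 123 smaller, and that at 150 to 180 min 287 and 98. Without mock array 1 of the 0 to 60 min window, smaller responses numbered 59 and 48. The block ended none of the 76 calls, and none of the calls between interferons or windows of the genes named. Values near the floor limit what can be seen of genes that are off in mock.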

Other observations

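With only the arrays of the 0 to 30 min window, 24 more genes were called higher and 17 more lower, and 21 of these 41 were also called in the fit of all 36 arrays with the array number as a block. Higher in both of these fits were Rtp4 (1.19), Parp3 (1.07), Bcl3 (0.93), Map3k8, a kinase upstream of ERK (0.89), and Tnfrsf1a, a receptor of tumour necrosis factor (0.76). Lower in both were Snai1, a repressor of epithelial genes (-0.86), the cytokine gene Tslp (-0.79), Mycn (-0.68) and Tbx3 (-0.56). Without the block their adjusted p-values in the fit of all 36 arrays lay above 0.05, and they were picked after their values were seen.

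Of the 3380 kept probe sets without a gene symbol, 25 were called higher and 0 lower, and of the 512 with several symbols 3 were called higher. For 30 of the 72 risers a second probe set had passed the filter, and for 18 of these 30 another probe set was called too. Those without such a call include Pim1, Cx3cl1 and Trim25.

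The transcript 9330175E14Rik rose by 2.96 at 0 to 30 min and by 2.31 at 30 to 60 min with 500 µM 4sU, but differed by 0.46 in the single 0 to 60 min labelling with 200 µM 4sU. Rnf122 read 2.01, 2.26 and 0.69 in the same order.

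A difference from mock was called only after 30 min for genes such as Icam1, an adhesion molecule (0.00 at first, 2.49 at 30 to 60 min). Others were Nod1, a sensor of bacterial cell walls (-0.18 and 2.66), Il18rap (0.19 and 3.44), Hk2, a hexokinase (0.20 and 2.25), and Parp9 (-0.05 and 3.03). All are among 83 genes with a called gain at 30 to 60 min and no call in the first 30 min. Between these windows the mock mean of Nod1 fell from 5.991 to 3.809. Its IFN gamma mean rose from 5.814 to 6.47. Mock means of the others went from 5.71 to 4.075 (Parp9), 4.699 to 3.851 (Il18rap), 10.194 to 9.955 (Hk2) and 2.379 to 2.405 (Icam1). Their IFN gamma means rose, in the same order, from 5.656 to 7.107, 4.892 to 7.29, 10.397 to 12.206 and 2.378 to 4.893.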
